A study of Mus musculus with 6 samples.

Results

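The immediate early genes were followed in kidneys of 24-month-old mice. They are Fos, Fosb, Jun, Junb, Egr1, Ier2, Ier3, Atf3, Dusp1 and Zfp36, chosen by name as a set. All 10 were found among the 13696 genes of the deposited tables. The study compared 3 kidney samples labelled as a fat-1 knockin with 3 labelled WT, all from 24-month-old mice. The fat-1 gene comes from a nematode and encodes a desaturase that makes omega-3 fatty acids from omega-6 ones. Its promoter, the strain and sex of the mice, and whether a sample is 1 animal or a pool were not in the labels used here, nor was any treatment. Transcripts of the transgene were not analysed here. WT replicate numbers follow the sample titles, and fat-1 replicates were numbered in the order of the samples.

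Immediate early genes are switched on within minutes of a stimulus, before any new protein is made. Growth factors, calcium, cytokines, loss of blood flow and cell stress act through MAP kinases on serum response factor and CREB that already sit at their promoters, and the messenger RNAs are then degraded quickly. In kidney they are best known as an early response to ischaemia and injury, and they are also known to come on in excised or dissociated tissue.

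Promoter sequence is shown because these genes share the factors that act on them. The TGACG core is the left part of a cyclic AMP response element, to which CREB and ATF proteins bind, and the CArG box is the element that serum response factor binds. The windows below come from the RefSeq annotation of GRCm38.p6, were found for 8 of the 10 genes (not for Ier2 and Egr1), and were searched on both strands from 250 bases upstream to 50 bases downstream of the start site for the core TGACG, for the full response element TGACGTCA, for the AP-1 site in its 2 forms (TGACTCA and, on its other strand, TGAGTCA) and for the CArG box, and on the gene's strand for TATAAA. Fos, Dusp1 and Zfp36 are shown for the element each holds, and Junb for comparison. Capitals mark the matches.
Fos (chr12:85473640-85473889, plus strand): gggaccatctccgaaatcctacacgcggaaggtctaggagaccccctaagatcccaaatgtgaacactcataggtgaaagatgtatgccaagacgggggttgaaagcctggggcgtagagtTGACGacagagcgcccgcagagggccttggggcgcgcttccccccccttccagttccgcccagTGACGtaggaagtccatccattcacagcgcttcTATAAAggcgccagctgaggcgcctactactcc
Junb (chr8:84978749-84978998, minus strand): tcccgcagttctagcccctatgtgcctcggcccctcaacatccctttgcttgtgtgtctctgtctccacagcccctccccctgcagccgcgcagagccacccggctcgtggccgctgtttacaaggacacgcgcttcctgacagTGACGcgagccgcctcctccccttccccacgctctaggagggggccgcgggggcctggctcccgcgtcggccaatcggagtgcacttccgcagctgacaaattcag
Dusp1 (chr17:26508520-26508722, minus strand): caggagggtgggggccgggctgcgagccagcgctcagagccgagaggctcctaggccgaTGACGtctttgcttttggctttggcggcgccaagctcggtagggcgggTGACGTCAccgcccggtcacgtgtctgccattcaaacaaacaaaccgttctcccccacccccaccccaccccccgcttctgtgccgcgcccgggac
Zfp36 (chr7:28379267-28379296, minus strand): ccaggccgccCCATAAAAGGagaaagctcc

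In Fos the TGACG matches begin at positions -129 and -66 from the start site, and TATAAA lies at -33 to -28. Dusp1 holds the full palindrome TGACGTCA, which contains the shorter core on each strand, from -143 to -136. The CArG box of Zfp36 begins at -58 from the RefSeq start and lies inside the longer annotated transcript of the gene, so only 30 bases are given. TGACG occurred in the windows of 5 members (Fos, Fosb, Junb, Atf3 and Dusp1), against 20.9% of 32544 promoter windows of the same length. The full TGACGTCA was found in 1.80% of those windows, the CArG box in 1.64% and TATAAA in 8.28%. The AP-1 site was found in 5.19% of them and in none of the 8 members. Junb also held TATAAA, at positions 1 to 6, which lie outside its printed bases. These matches describe letters in a window and are not shown to be bound. Sequence farther upstream was not searched, nor were Ier2 and Egr1, so a missing match does not show that a gene lacks the element.

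Levels are in FPKM, which scales the fragments of a transcript by its length and by those of the whole library, so that genes can be set beside each other. They were summed over the transcripts of each gene. Summed FPKM over all genes lay between 387488 and 431081 per library, and since the sequencing depth is unknown, counting intervals could not be given. Proximal tubule markers such as Lrp2 and Slc34a1 were high in every library, with a sum over 9 markers between 2104 and 2844 FPKM. WT replicate 1 stood apart before any comparison: its log2 values correlated with those of the other 5 libraries at 0.942 to 0.95, against 0.949 to 0.976 in the 10 pairs without it. It also held 875.8 FPKM summed over 8 macrophage markers, against 110.4 to 216.9 in the fat-1 libraries and 104.7 and 128.3 in the other WT libraries. The tests of the members are therefore summarised with and without it, as are the medians of several of the gene lists.

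The first pattern in the immediate early genes was that same library. WT replicate 1 had the highest of the 6 values for 9 of the 10 genes, the exception being Ier3, and 8 of these 9 were among the 9 members that passed the filter on low values. Across all 11698 genes that passed it, 25.2% were highest in WT replicate 1. Summed over the 10 genes the levels were 148.0, 111.5 and 149.6 FPKM in fat-1 replicates 1, 2 and 3, against 240.8, 73.91 and 73.95 FPKM in WT replicates 1, 2 and 3. The 3 fat-1 libraries thus lay between a high and a pair of low WT libraries.

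**Figure D1:**
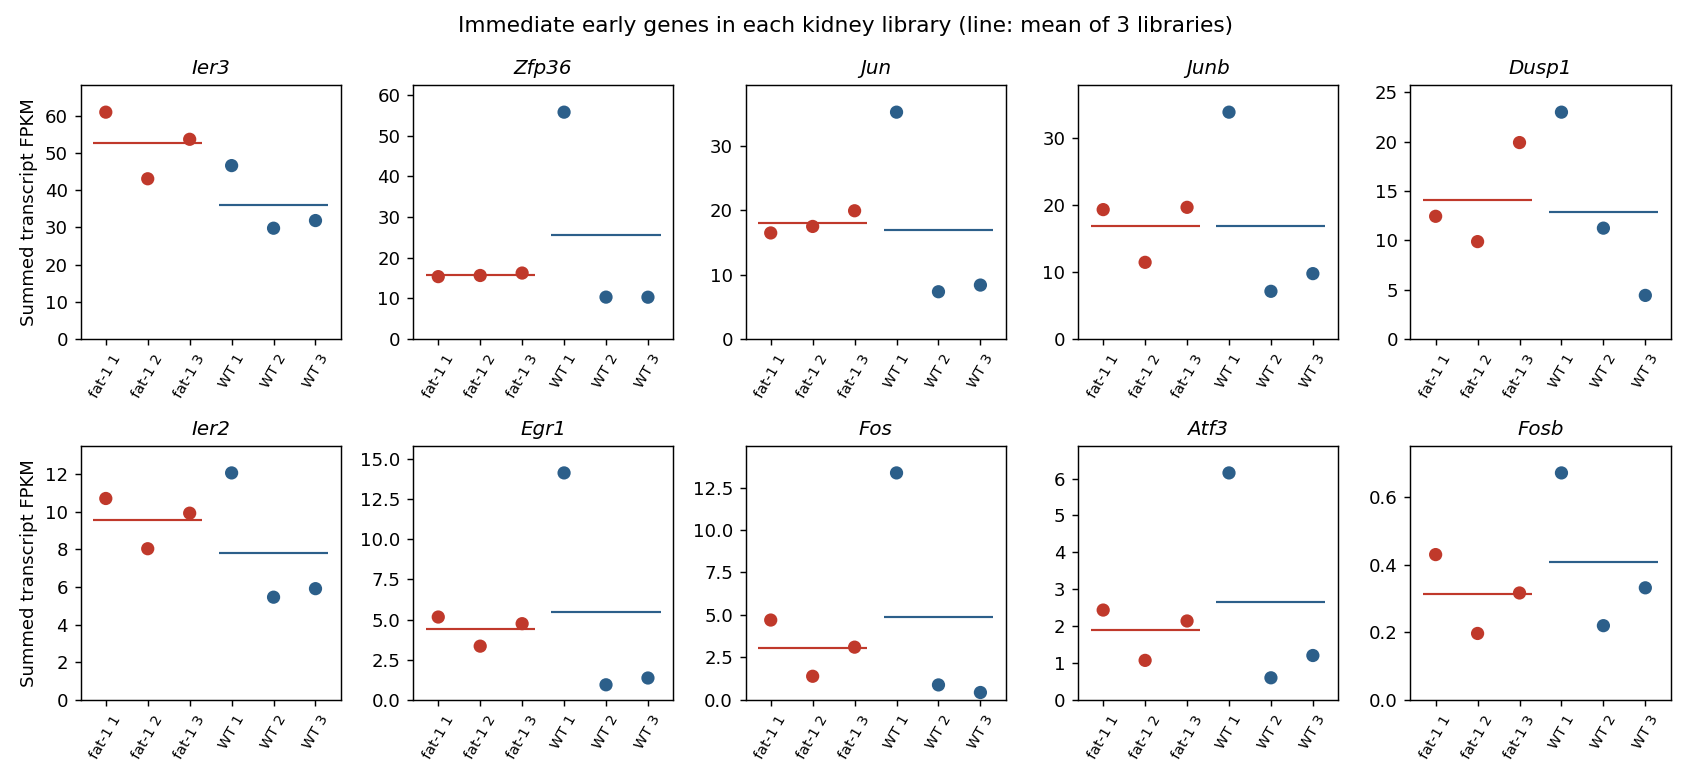
Summed transcript FPKM (vertical axis, linear, from 0) of each immediate early gene in the 3 fat-1 libraries (red) and the 3 WT libraries (blue), with a line at each group's mean; panels run from the highest to the lowest mean level. WT replicate 1 is the highest point in every panel but that of Ier3, while WT replicates 2 and 3 lie low.

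Among the AP-1 transcription factor genes, which encode proteins that pair through a leucine zipper, Fos varied most. Fos (chromosome 12, 85473890 to 85477273, mm10, 4 exons) measured 4.70, 1.39 and 3.10 FPKM in fat-1 kidneys, against 13.4, 0.879 and 0.433 FPKM in WT kidneys. The value in WT replicate 1 was 20.4 times the mean of the other WT values, and the highest Fos value of the series was 30.9 times the lowest. Every fat-1 library was above WT replicates 2 and 3 and below WT replicate 1, so the groups overlapped.

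Fosb (chromosome 7, 19302696 to 19310051, 4 exons), whose protein is the close relative of FOS, was at 0.431, 0.197 and 0.317 FPKM in fat-1 kidneys, against 0.673, 0.220 and 0.332 FPKM in WT kidneys. It was the lowest of the 10 genes in all 6 libraries. It did not pass the filter of at least 1 FPKM in at least 3 libraries and has no test in the comparison of genotypes.

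Jun (chromosome 4, 95049034 to 95052222), the main partner of FOS and encoded by a gene without introns, measured 16.5, 17.5 and 19.9 FPKM in fat-1 kidneys, against 35.2, 7.34 and 8.37 FPKM in WT kidneys. The fat-1 values lay close to each other, with the highest 1.21 times the lowest, while WT replicate 1 was 4.48 times the mean of the other WT libraries. Junb (chromosome 8, 84976910 to 84978718, 1 exon), which forms AP-1 dimers of weaker activity than JUN, followed with 19.3, 11.4 and 19.6 FPKM in fat-1 kidneys, against 33.8, 7.12 and 9.75 FPKM in WT kidneys. In both genes all fat-1 libraries lay between WT replicate 1 and the other WT libraries.

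Atf3 (chromosome 1, 191170296 to 191183340, 4 exons), a stress-induced repressor of the ATF family, was at 2.43, 1.07 and 2.14 FPKM in fat-1 kidneys, against 6.15, 0.598 and 1.2 FPKM in WT kidneys. Here fat-1 replicate 2 fell within the low WT values.

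Egr1 (chromosome 18, 34859823 to 34864984, 2 exons), a zinc finger factor and a classic target of serum response factor, had the largest excess in WT replicate 1 after Fos. It measured 5.16, 3.34 and 4.74 FPKM in fat-1 kidneys, against 14.1, 0.937 and 1.36 FPKM in WT kidneys. WT replicate 1 was 12.3 times the mean of the other WT libraries, and the fat-1 mean was 3.84 times that same mean.

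The Ier genes varied within narrower limits. Ier2 (chromosome 8, 84661331 to 84662852, 1 exon), a nuclear protein gene, was at 10.7, 8.04 and 9.93 FPKM in fat-1 kidneys, against 12.1, 5.46 and 5.91 FPKM in WT kidneys. Ier3 (chromosome 17, 35821684 to 35822923, 2 exons), which encodes a regulator of cell survival, was at 61.0, 43.1 and 53.7 FPKM in fat-1 kidneys, against 46.6, 29.8 and 31.9 FPKM in WT kidneys. Ier3 was the member with the highest mean level over the 6 libraries, and in all of them but WT replicate 1, where Zfp36 exceeded it, it ranked above every other member. Its value in WT replicate 1 was 1.51 times the mean of the other WT libraries and was exceeded by fat-1 replicates 1 and 3.

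The 2 remaining genes encode feedback inhibitors of the response. Dusp1 (chromosome 17, 26505590 to 26508519, 4 exons), a phosphatase that switches off MAP kinases, was at 12.4, 9.88 and 19.9 FPKM in fat-1 kidneys, against 23.0, 11.2 and 4.43 FPKM in WT kidneys. In WT replicates 2 and 3 Dusp1 differed by 2.54 times, the widest ratio between these 2 libraries among the 10 genes, and fat-1 replicate 2 was below WT replicate 2.

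Zfp36 (chromosome 7, 28376784 to 28380253), whose product tristetraprolin binds AU-rich elements and speeds the decay of cytokine and early gene messages, was at 15.4, 15.6 and 16.2 FPKM in fat-1 kidneys, against 55.8, 10.3 and 10.3 FPKM in WT kidneys. The fat-1 values were nearly level and the WT group was split. This gene had 2 listed transcripts. The shorter one, of 1 exon and 2465 bases, held 13.2 FPKM in WT replicate 1, and between 0.606 and 1.81 FPKM in fat-1 libraries against 1.35 and 2.32 FPKM in the other WT libraries. It made up 3.94 to 11.6% of the gene's FPKM in fat-1 and 13.1 to 23.7% in WT. The gap between these ranges was narrow, and the FPKM of this transcript overlapped between the groups. How many other genes show such a split was not computed. The shorter transcript lies within the span of the longer one, so their division is an estimate. A difference in transcript use was not tested. Antisense genes overlap Jun (Junos) and Zfp36 (Gm44710). No source used here says whether counting used the strand, so reads of these partners cannot be told apart from the members' own.

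Ordered by mean FPKM over the 6 libraries, the levels ran from Ier3 (44.4) over Zfp36 (20.6), Jun (17.5), Junb (16.8), Dusp1 (13.5), Ier2 (8.69), Egr1 (4.95), Fos (3.98) and Atf3 (2.27) to Fosb (0.362). Zfp36, Jun, Junb and Dusp1 changed places with each other between libraries and cannot be ordered beyond their spread. Egr1 was above Atf3 in all 6 libraries, while Fos was above Atf3 in all but WT replicate 3.

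Within the WT group the 9 tested members had a median SD of 1.14 on the log2(FPKM + 1) scale, against 0.20 over all tested genes. Within fat-1 the median SD was 0.27 for these members, against 0.20 over all tested genes. The passing members were admitted by their level in any 3 libraries, and Fos, Egr1 and Atf3 passed without reaching 1 FPKM in every WT library, so these medians are descriptions.

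**Figure D2:**
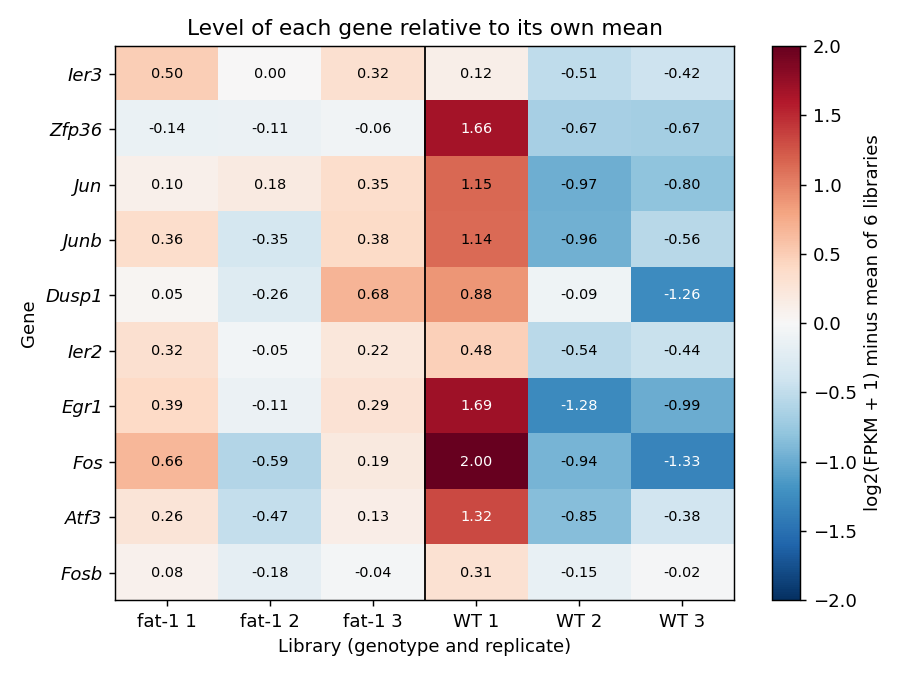
Each cell gives log2(FPKM + 1) of a gene in a library minus that gene's mean over the 6 libraries (red above, blue below the mean), with genes ordered by mean level and the fat-1 libraries left of the line. The column of WT replicate 1 is positive for all 10 genes, from 0.12 for Ier3 to 2.00 for Fos, and the columns of WT replicates 2 and 3 are negative for all 10.

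Library by library, the mean of the 10 genes relative to their own 6-library means was 0.26, -0.19 and 0.25 in fat-1 replicates 1, 2 and 3, against 1.07, -0.69 and -0.69 in WT replicates 1, 2 and 3, all on the log2(FPKM + 1) scale. In fat-1 replicate 1, 9 genes lay above their mean, in fat-1 replicate 3 8 genes, and in fat-1 replicate 2 2 genes. All 10 lay above their mean in WT replicate 1 and 0 in WT replicates 2 and 3. WT replicate 2 was the lowest library for 6 members and WT replicate 3 for 3, while 19.9% and 21.6% of all tested genes were lowest there.

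The comparison of genotypes asked whether these genes differ in kidneys of aged mice that carry fat-1. None of the 9 tested genes differed at an adjusted p of 0.05 in limma (0 of 9, over all 11698 genes 21 were called, 0.18%), and Ier3 alone had an unadjusted p under 0.05 (9.97% of all genes did). The difference in Ier3 was 0.54 ± 0.21 (SE) on the log2(FPKM + 1) scale, fat-1 minus WT, with group means of 52.6 ± 9.0 FPKM in fat-1 and 36.1 ± 9.18 FPKM in WT (SD, n = 3 each) and an adjusted p of 0.446 in limma. Adjusted p over the other 8 genes lay between 0.830 for Ier2 and 0.993 for Atf3.

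With the WT libraries this far apart, the intervals were wide. For Fos the difference was 0.18 with a 95% interval from -1.91 to 2.26, for Egr1 0.38 (interval -1.42 to 2.19), for Jun 0.42 (interval -0.87 to 1.71) and for Junb 0.26 (interval -1.03 to 1.55). Atf3 differed by -0.06 and Zfp36 by -0.21, Ier2 by 0.33 and Dusp1 by 0.31. The upper limits of the 9 intervals lay between 1.00 for Ier2 and 2.26 for Fos. Over the 10 genes, Fosb included, 7 differences were positive and the median was 0.29, against 0.006 over all tested genes. No member had every fat-1 library above every WT library, an arrangement that 8.33% of all tested genes showed.

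Without WT replicate 1 all 10 differences were positive, with a median of 0.79 against 0.05 over all genes tested. In that fit of 3 fat-1 and 2 WT libraries limma called 0 of the 9 tested genes after adjustment. Of these 9, 7 had an unadjusted p under 0.05 in limma and were higher in fat-1, against 9.05% of the 11475 genes tested there. With 2 WT libraries left, the filter could be met by the 3 fat-1 libraries alone but not by WT alone. Fos passed it only through fat-1, so its count among the 7 is a description only. The smallest adjusted p in limma were 0.0595 for Jun (difference 1.10 ± 0.15, SE) and 0.0826 for Egr1 (1.32 ± 0.22). All fat-1 libraries were above both remaining WT libraries for Fos, Jun, Junb, Egr1, Ier2, Ier3 and Zfp36, 7 of 10 genes, and 20.6% of all tested genes showed the same. Atf3, Dusp1 and Fosb did not.

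The other libraries mattered too. Without WT replicate 2 the median over the 10 genes was -0.16 and 4 differences were positive, and without WT replicate 3 the median was -0.07 with 4 positive. Without fat-1 replicate 1, 2 or 3 the median was 0.20, 0.47 or 0.13. Limma called 0 members in each of these fits. The sign of the median thus changed with the WT library that was left out.

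**Figure D3:**
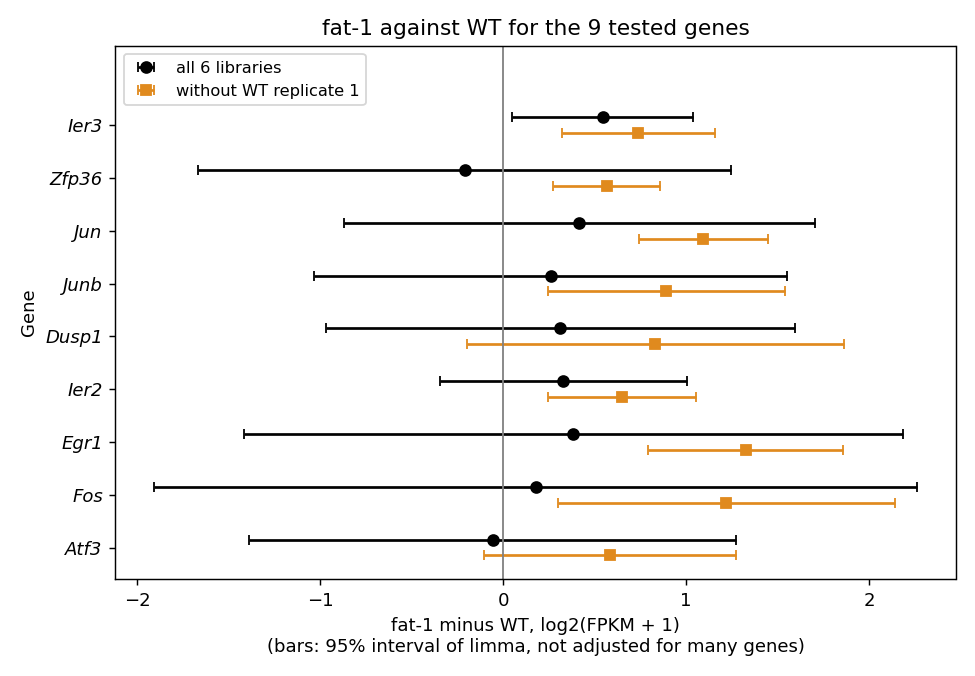
Difference between fat-1 and WT (fat-1 minus WT, log2(FPKM + 1), horizontal axis) for the 9 tested genes with 95% limma intervals, for all 6 libraries (black circles) and without WT replicate 1 (orange squares). With all libraries every interval but that of Ier3 includes 0, and without WT replicate 1 all differences are positive and those of Atf3 and Dusp1 include 0.

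Other genes of the rapid response were read from a list of 44, of which 41 were in the tables, with relatives of the AP-1 genes, NR4A receptors, Krüppel-like factors and MAP kinase phosphatases among them. Of 35 tested, 28 had a positive and 7 a negative difference with all libraries, with a median of 0.29, and limma called 0. Without WT replicate 1 the median was 0.60, and 21 had an unadjusted p under 0.05 in limma and were higher in fat-1. The share was 9.05% of the 11475 genes tested in that fit, whose filter the fat-1 libraries alone could meet. Plk3 passed that filter only through fat-1, so its count among the 21 is a description only. Dusp5, included in the 35, did not pass it and had no test in that fit. Limma again called 0 of the list after adjustment. Klf10, a transforming growth factor beta-induced transcription factor, came nearest with 14.1, 15.8 and 20.0 FPKM in fat-1 kidneys, against 7.65, 6.05 and 6.64 FPKM in WT kidneys (difference 1.17, adjusted p = 0.0652 in limma, and 0.0626 without WT replicate 1). In Klf10 WT replicate 1 was low as well and the groups did not overlap. Myc, the growth-related transcription factor gene, was at 5.36, 5.47 and 6.63 FPKM in fat-1 kidneys, against 4.76, 2.7 and 2.34 FPKM in WT kidneys, again without overlap (adjusted p = 0.352 in limma, and 0.0928 without WT replicate 1).

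WT replicate 1 was the highest library for 17 of these 35 genes, or 48.6%, against 25.2% of all tested genes. All fat-1 libraries were above WT replicates 2 and 3 for 24, or 68.6%, against 20.6% of all tested genes. Nr4a1, an orphan receptor gene induced by calcium and cytokines, had the members' pattern, with 6.49, 7.40 and 4.26 FPKM in fat-1 kidneys, against 9.08, 1.32 and 1.79 FPKM in WT kidneys. Egr2, a relative of Egr1, and Ptgs2, the gene of the inducible cyclooxygenase, were under 1 FPKM in all libraries but WT replicate 1, at 1.91 and 1.26 FPKM, and were not tested.

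The regulators upstream are the MAP kinases, their activators and the promoter-bound factors. Among 20 tested genes of this list, 12 differences were positive and 8 negative (median 0.02, and 0.14 without WT replicate 1), and limma called 0. WT replicate 1 was highest for 7 (35.0%, against 25.2% of all tested genes), and all fat-1 libraries exceeded WT replicates 2 and 3 for 3 (15%, against 20.6%). Map2k2, encoding the MAP kinase kinase MEK2, was at 23.0, 20.6 and 19.6 FPKM in fat-1 kidneys, against 22.5, 50.6 and 63.5 FPKM in WT kidneys. Without WT replicate 1 this gene was called lower in fat-1 (difference -1.39, adjusted p = 0.0417 in limma), and with all 6 libraries it was not (adjusted p = 0.442).

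Of 11 tested MAP kinase feedback inhibitors, 10 had positive differences (median 0.22, and 0.27 without WT replicate 1) and 0 were called. Spry1, a growth factor antagonist, had the smallest p, with 10.1, 9.68 and 8.72 FPKM in fat-1 kidneys, against 8.29, 4.55 and 6.10 FPKM in WT kidneys (adjusted p = 0.431 in limma, and 0.144 without WT replicate 1). Of 8 tested AP-1 partners, 4 were positive and 4 negative with 0 called (median 0.10, and 0.22 without WT replicate 1). WT replicate 1 was highest for 6 of the 8, against 25.2% of all tested genes. Some of these partners, and some feedback inhibitors, were also counted in the rapid-response list. Zfp36l1 and Zfp36l2, relatives of Zfp36, were both highest in WT replicate 1 and differed by -0.01 and 0.02 between genotypes. Among 6 genes of messenger RNA decay, 5 were positive and 0 called (median 0.15, and 0.10 without WT replicate 1).

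Signs of stress and handling were then read library by library. Among heat shock genes 0 of 16 were highest in WT replicate 1 (25.2% of all tested genes were). Of these 16, 0 had all fat-1 libraries above WT replicates 2 and 3 (20.6% of all tested genes did). Their mean relative level was -0.13, -0.15 and 0.05 in fat-1 replicates 1, 2 and 3, against -0.17, 0.20 and 0.20 in WT replicates 1, 2 and 3, with 4 positive and 12 negative differences and 0 called (median -0.13, and -0.16 without WT replicate 1). The stress-inducible Hspa1a was at 5.49, 4.24 and 12.5 FPKM in fat-1 kidneys, against 6.93, 6.95 and 6.98 FPKM in WT kidneys, and its near-identical copy Hspa1b, with which it may share reads, was likewise highest in fat-1 replicate 3, at 18.9 FPKM. Hmox1, the haem oxygenase induced by oxidative stress, lay between 24.6 and 35.2 FPKM in fat-1 and between 29.7 and 33.8 FPKM in WT.

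Of 15 tested oxygen-sensitive genes, 7 differences were positive and 8 negative (median -0.10, and 0.10 without WT replicate 1). WT replicate 1 was highest for 6 of the 15, against 25.2% of all tested genes, and all fat-1 libraries exceeded WT replicates 2 and 3 for 6 of the 15, against 20.6%. Egln3, a prolyl hydroxylase gene induced by low oxygen, was called higher in fat-1 (15.2, 16.1 and 15.2 FPKM in fat-1 kidneys, against 5.61, 7.13 and 5.23 FPKM in WT kidneys, adjusted p = 0.0473 in limma). Without WT replicate 1 the adjusted p for Egln3 was 0.0595 in limma and the call was lost. WT replicate 1 was within the range of the other WT libraries for Egln3. The metallothionein genes Mt1 and Mt2 were highest in fat-1 replicate 1.

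Genes induced by corticosteroids and the clock were examined because Dusp1 and Zfp36 are also known as corticosteroid-induced. Per1, a clock gene that corticosteroids also induce, was at 5.25, 8.13 and 8.93 FPKM in fat-1 kidneys, against 6.11, 2.37 and 2.62 FPKM in WT kidneys (adjusted p = 0.427 in limma, and 0.0998 without WT replicate 1), and its WT replicate 1 was above the other WT libraries. Fkbp5, a chaperone gene that tracks corticosteroids, was at 29.7, 20.9 and 35.9 FPKM in fat-1 kidneys, against 31.9, 26.8 and 28.9 FPKM in WT kidneys. Of 10 genes in the corticosteroid list, 4 were highest in WT replicate 1 and 0 were called between genotypes (median 0.13, and 0.38 without WT replicate 1). Over all tested genes, 25.2% were highest in WT replicate 1. In the clock list 1 of 13 was highest in WT replicate 1, 10 were positive and 3 negative (median 0.57, and 0.52 without WT replicate 1), and 0 were called. Dbp, a clock output factor, was at 27.7, 38.0 and 30.1 FPKM in fat-1 kidneys, against 12.9, 18.1 and 9.91 FPKM in WT kidneys (adjusted p = 0.117 in limma, and 0.143 without WT replicate 1). The smallest p of the list belonged to a negative gene, Npas2 (difference -1.33, adjusted p = 0.0766 in limma). Npas2 was at 1.00, 0.494 and 0.489 FPKM in fat-1, against 2.69, 2.92 and 3.89 FPKM in WT. Arntl, also negative (-0.976, adjusted p = 0.134 in limma), was at 2.71, 1.73 and 2.14 FPKM in fat-1, against 5.03, 4.32 and 6.56 FPKM in WT. In neither gene did the groups overlap. The hour of collection was not in the labels used here.

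All 6 tested cytokine and adhesion genes were highest in WT replicate 1 (25.2% of all tested genes were). Of these 6, 4 had all fat-1 libraries above WT replicates 2 and 3 (20.6% of all tested genes did). Their median difference was -0.29 with all libraries and 0.76 without WT replicate 1. Cxcl10, an interferon-induced chemokine gene, was at 13.3, 7.63 and 10.3 FPKM in fat-1 kidneys, against 102.3, 5.69 and 3.71 FPKM in WT kidneys. Ccl2, the monocyte chemokine gene, was at 3.37, 1.14 and 2.27 FPKM in fat-1 kidneys, against 15.1, 2.27 and 2.78 FPKM in WT kidneys, so that fat-1 replicate 2 was below every WT library. Limma called 0 of the 6 in either fit.

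Markers of immune cells and fibroblasts were read beside the members. For the counts below, 25.2% of all tested genes were highest in WT replicate 1. All fat-1 libraries lay above WT replicates 2 and 3 in 20.6% of all tested genes. Of 8 macrophage markers 7 were highest in WT replicate 1 and 4 had all fat-1 libraries above WT replicates 2 and 3, with a median difference of -0.31, and 0.51 without WT replicate 1, and their sum was 156.5, 110.4 and 216.9 FPKM in fat-1, against 875.8, 104.7 and 128.3 FPKM in WT. Lyz2, the lysozyme of myeloid cells, was at 447.3 FPKM in WT replicate 1 and between 25.0 and 71.7 FPKM in the other libraries. Of 7 neutrophil markers 4 were listed, and these summed to 22.5, 0.768 and 3.41 FPKM in fat-1, against 51.7, 13.4 and 31.5 FPKM in WT, with S100a8 at 0 in fat-1 replicate 2. The 8 lymphocyte markers summed to 3.83, 4.57 and 20.3 FPKM in fat-1, against 25.7, 1.82 and 4.25 FPKM in WT, with 3 of them at 0 in at least 1 library. Among these 8, Ptprc, which other leukocytes also express, held 8.26 FPKM in fat-1 replicate 3 and 8.27 FPKM in WT replicate 1. Ptprc stayed under 1 FPKM in the other libraries. Of the 2 neutrophil markers tested, both were highest in WT replicate 1 and 0 had all fat-1 libraries above WT replicates 2 and 3, and of the 2 lymphocyte markers tested, 1 and 0 did so. The 6 fibroblast markers, 4 of them highest in WT replicate 1 and 2 with all fat-1 libraries above WT replicates 2 and 3, summed to 49.0, 54.3 and 70.4 FPKM in fat-1, against 100.6, 47.5 and 65.8 FPKM in WT. The part of these cells in the members' values was not tested, and in bulk tissue more cells of a type and more RNA per cell cannot be told apart.

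Markers of vessels, nephron segments and blood differed from list to list. The shares to set beside their counts are those of all tested genes. Of these, 20.6% had every fat-1 library above WT replicates 2 and 3, and 25.2% were highest in WT replicate 1. All 8 endothelial markers had every fat-1 library above WT replicates 2 and 3, as 7 members did, but 0 of 8 were highest in WT replicate 1, and 1 was called, Plvap, a protein of fenestrated endothelium (adjusted p = 0.0496 in limma, and 0.0626 without WT replicate 1). Their sum was 155.9, 187.9 and 222.2 FPKM in fat-1, against 87.9, 74.2 and 89.3 FPKM in WT. Of 5 podocyte markers 4 likewise had every fat-1 library above WT replicates 2 and 3 and 0 were highest in WT replicate 1. Of 4 markers of the distal convoluted tubule 3 were highest in WT replicate 1, at a mean relative level of 0.88, and 0 had every fat-1 library above WT replicates 2 and 3. The part of these cells in the values of the members was not tested. Erythrocyte genes, read here as a sign of blood left in the tissue, summed to 534.5, 22.5 and 7.13 FPKM in fat-1, against 235.3, 131.1 and 197.5 FPKM in WT. Fat-1 replicate 1 was thus highest and fat-1 replicate 3 lowest. The part of blood in the values of the members was not tested either.

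Injury genes split the fat-1 group in another way. The 11 tubule injury genes had a mean relative level of 0.57, -1.19 and 0.54 in fat-1 replicates 1, 2 and 3, against 0.55, -0.26 and -0.21 in WT replicates 1, 2 and 3. Fat-1 replicate 2 thus stood lowest, and 0 of 11 were called (median difference -0.12, and 0.22 without WT replicate 1). Among the fat-1 libraries it was the lowest for 8 of the 10 members (all but Jun and Zfp36). The share of all tested genes lowest there among the fat-1 libraries was not computed. Of all 6 libraries, fat-1 replicate 2 was the lowest for 1 member and for 22.6% of all tested genes, the largest such share of any library. Havcr1, the injury marker KIM-1 of the proximal tubule, was at 67.7, 3.98 and 13.9 FPKM in fat-1 kidneys, against 17.5, 23.5 and 13.7 FPKM in WT kidneys, so WT replicate 1 lay between the other WT libraries. Lcn2, encoding the injury marker NGAL, was at 58.7, 4.76 and 68.3 FPKM in fat-1 kidneys, against 61.1, 11.2 and 8.88 FPKM in WT kidneys.

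**Figure D4:**
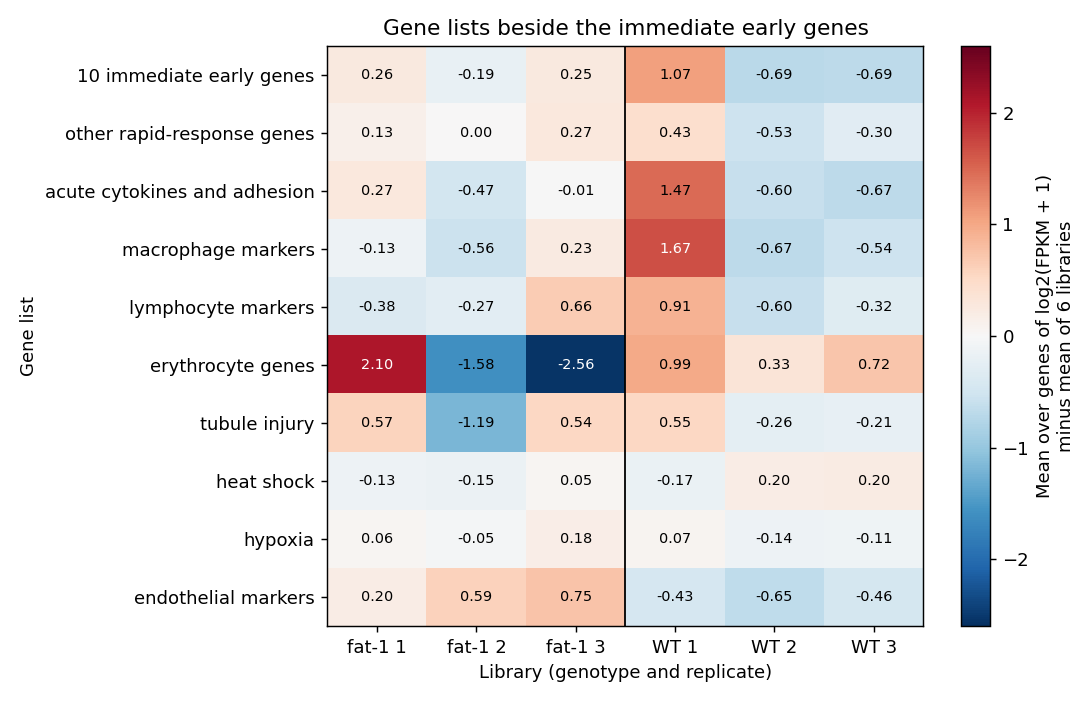
Each cell gives, for a gene list and a library, the mean over the listed genes of log2(FPKM + 1) minus the gene's mean over the 6 libraries (red above, blue below), with fat-1 left of the line. WT replicate 1 is high for the 10 immediate early genes (1.07), cytokine and adhesion genes (1.47) and macrophage markers (1.67), and not for heat shock genes (-0.17) or endothelial markers (-0.43).

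Genes outside the set whose values ran most like those of the members were sought among 926 tested genes. These had a mean of at least 5 FPKM and an SD of at least 0.5 on the log2 scale. The measure was Pearson's correlation over the 6 libraries with the mean of the 9 tested members, each standardised. The 10 with the highest values were Icam1 (0.991), Marcksl1, Btg2, Socs3, Pla2g16, Klf6, Hcls1, Ifi27, Mmp14 and Birc3 (0.976). Having been chosen for likeness to a mean that peaks in WT replicate 1, all 10 were highest in that library, which is no separate result. Without that library their correlations over the other 5 libraries lay between 0.966 and 0.992. The correlations rest on few libraries, were chosen as the highest of many, and carry no test. Icam1, an adhesion molecule of endothelium and leukocytes, was at 18.7, 15.03 and 19.4 FPKM in fat-1 kidneys, against 27.6, 8.84 and 9.23 FPKM in WT kidneys. Hcls1, a gene of blood-forming cells, was at 6.80, 5.02 and 8.89 FPKM in fat-1 kidneys, against 15.4, 3.32 and 3.56 FPKM in WT kidneys.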

How the data were processed

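Kidney RNA of 6 samples was sequenced. The deposited tables, 1 for each sample, hold FPKM values per transcript made by the authors. The submitters' processing notes name mm10 and the tools HISAT2 (2.0.5), featureCounts (1.5.0-p3) and DESeq2 (1.20.0), and no source used here names the tool that made the FPKM. Each of the 27486 listed transcripts reached 0.5 FPKM in some library, so rarer ones are missing from the gene sums. Of the low values, 20.4 to 25.6% lay within 0.05 of a whole multiple of the smallest step, too few to recover read counts. FPKM were summed over the transcripts of each gene identifier. Exons and antisense genes came from GENCODE, on the same build.

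A gene entered the test if 3 or more libraries reached 1 FPKM. The test was limma (3.58.1, R 4.3.3) with intensity trend and robust variance, fitted to log2(FPKM + 1) of all such genes, with Benjamini-Hochberg adjustment and a threshold of 0.05. Its script was tested on simulated data. The members and gene lists were chosen with earlier results of these data known. Some genes stand in several of the lists, so the counts of different lists are not independent. Named genes are all members, up to 4 genes with the smallest p of each other list, the 10 genes most like the members, and fixed names for stress, time of day, corticosteroids, oxygen and injury. Lrp2, Egr2, Ptgs2, Plk3, Dusp5, Cxcl10, Lyz2, S100a8, Ptprc and Lcn2 were named after their values were seen. Since no label says that samples came from separate animals, a p-value covers only the variation among these samples, which may be technical. Alternatives changed the pseudocount, the filter, the scaling, the variance options, the transcripts summed and the libraries included. Tables and plots were made in Python (3.11.15) with pandas (2.3.3) and matplotlib (3.10.9).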

Additional observations from a re-analysis of the deposited data

How the results depend on the processing

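No member was called by limma under any alternative tried, and of 141 recomputed differences of tested members 129 kept their sign and 12 did not. A pseudocount of 5 gave -0.075 for Fos and a pseudocount of 0.1 gave 0.075 for Atf3. With a library left out, the difference between fat-1 and WT lay between -0.443 and 1.22 for Fos, -0.159 and 0.891 for Junb, -0.158 and 1.325 for Egr1, -0.495 and 0.586 for Atf3, -0.24 and 0.832 for Dusp1, and -0.599 and 0.566 for Zfp36. The sign changed without WT replicate 1 for Atf3 (0.586) and Zfp36 (0.566), without WT replicate 2 for Fos (-0.247), Junb (-0.159) and Egr1 (-0.158), without WT replicate 3 for Fos (-0.443), Egr1 (-0.015) and Dusp1 (-0.24), without fat-1 replicate 1 for Fos (-0.111) and without fat-1 replicate 2 for Atf3 (0.164). The median over the 10 genes lay between -0.16 and 0.79 with a library left out and between 0.12 and 0.37 otherwise. Against 21 genes called in all, 4 were called with no filter, 42 with at least 5 FPKM, 8 with the median of ratios or the trimmed mean of M values, 11 with the upper quartile, 33 with equal sums without mitochondrially encoded genes, 3 with no trend, and between 0 and 25 with a library left out (at an unadjusted p under 0.05, 831, 1005 and 1059 where 0 were called). The causes were not tested. No paired analysis was possible because the labels give the groups no shared replicate numbers. Member sums per library moved by less than the spread within the group when scaled by the median of ratios or limited to the main transcript of each gene. Depth is unknown, so values under 1 FPKM, all of Fosb among them, have no stated precision.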
